A study of Mus musculus with 8 samples.

Results

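PU.1 belongs to the ETS family of transcription factors, acts in blood cells, binds purine-rich DNA around a GGAA core and is required for the macrophage and granulocyte lineages. In acute myeloid leukaemia its loss or reduction is linked to a block of differentiation. Chromatin immunoprecipitation with sequencing (ChIP-seq) maps where it sits on the genome, and a peak summit is the position at which the read pile-up of a called peak is highest. The 6558 sites described here were called in the library of day 12 of PU.1 restoration and in the library titled knockdown Day 12- 12, and in none of the other 5 libraries. They were chosen from 246675 merged sites by joining summits of all 7 lists that lay within 100 bp of each other, keeping sites called in exactly those 2 lists, and asking for a Day 12 score of 10 or more. They are called 2-library sites below. The calls and the Day 12 score limit chose them, so neither is a finding.

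The cells were AML246, a mouse acute myeloid leukaemia line grown with IL-3, in which doxycycline (Dox) restores PU.1. All treated cells received 0.1 ug/mL Dox, which was taken away at day 12, per the labels' protocols. The Day 12 library came from viable cells after 12 days of Dox. The library titled Day 12- 12 was labelled as viable cells 8 days off Dox, so title and treatment label disagree, and it is called by its title. The other 5 libraries were untreated cells (Day 0), 4 and 8 days of Dox (Day 4 and Day 8), the library titled Day 12- 4, whose label gives 12 days of Dox and sorting for high Cd11b, and the library titled Day 12- 8, labelled as 4 days off Dox. AML246 is 1 cell line and expression was not measured in these files, so its cell type was not checked against markers. Only 1 library stood behind each title, so the spread between replicates is unknown and no test was run.

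The Day 12 list held 86271 summits and the Day 12- 12 list 148415, against 8043, 57424, 33962, 9868 and 21377 in the lists of Day 0, Day 4, Day 8, Day 12- 4 and Day 12- 8. The lists of Day 12 and Day 12- 12 were therefore the longest pair, and sequencing depth was unknown. The score of a summit is the authors' −log10 q-value within its own list, so a score is a rank within a library and not an amount of PU.1, and a missing call does not show absence of binding.

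Of the 20 highest-scoring 2-library sites, 11 lay within 1 kb of a gene end, and all sat near summits of other libraries. Promoter sequence for the 6 highest-scoring of them that fell in a RefSeq promoter window is shown because these stretches are the DNA under the summits. A window runs from 250 bases before to 50 after a gene's start, on the gene's own strand (RefSeq, build GRCm38.p6, the NCBI name of mm10). Each stretch reaches up to 60 bases to either side of the Day 12 summit and stops at most 30 bases past the start. Capitals mark every GGAA, or TTCC for the same core on the opposite strand. Paxx, a factor of DNA end joining, lies at chr2:25461065-25461172 (minus strand) and Gimap9, an immune GTPase gene, at chr6:48676009-48676129 (plus). Cltc, the clathrin heavy chain, lies at chr11:86757608-86757728 (minus) and Srgap3, a GTPase-activating protein, at chr6:112947248-112947368 (minus). Glg1, a Golgi glycoprotein, lies at chr8:111259327-111259447 (minus), and 1700113A16Rik, near Mef2d, at chr3:88177972-88178035 (minus).
Paxx: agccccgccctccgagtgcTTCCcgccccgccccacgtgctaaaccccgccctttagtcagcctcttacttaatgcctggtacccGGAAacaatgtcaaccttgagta
Gimap9: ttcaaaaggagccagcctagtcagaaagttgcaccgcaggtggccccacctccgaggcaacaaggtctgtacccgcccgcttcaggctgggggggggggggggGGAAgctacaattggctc
Cltc: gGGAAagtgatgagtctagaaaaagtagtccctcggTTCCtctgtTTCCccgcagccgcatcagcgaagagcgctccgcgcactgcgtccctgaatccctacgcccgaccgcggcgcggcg
Srgap3: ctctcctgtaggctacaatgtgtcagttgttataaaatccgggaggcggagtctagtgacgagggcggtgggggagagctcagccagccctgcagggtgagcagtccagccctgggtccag
Glg1: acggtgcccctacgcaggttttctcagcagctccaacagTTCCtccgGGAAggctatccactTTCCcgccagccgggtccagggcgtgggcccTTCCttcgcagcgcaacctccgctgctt
1700113A16Rik: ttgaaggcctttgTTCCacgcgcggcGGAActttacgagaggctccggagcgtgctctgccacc
The Glg1 stretch held 4 cores, the Cltc stretch 3, the stretches of Paxx and 1700113A16Rik 2 each and the Gimap9 stretch 1. The Srgap3 stretch held 0 matches, although its site scored 218 at Day 12. A match describes letters only. Of all 32851 promoter windows in the table, 96% held the core on one strand or the other. Those windows are longer than the stretches shown, so that share is not a background for the stretches.

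The next stretches belong to sites that had no summit of the other 5 libraries within 500 bp, and are the highest-scoring of these in a promoter window. The nearest such summit lay 501 bp from the site at Ctu1, 711 bp from that at Cavin1 and 1182 bp from that at Itgb1bp1. Ctu1, a tRNA thiolation enzyme, is at chr7:43671805-43671925 (plus strand), with its site inside the neighbouring gene Siglece. Cavin1, a coat protein of caveolae, is at chr11:100970648-100970768 (minus), and Itgb1bp1, an integrin-binding adaptor, at chr12:21286255-21286346 (minus). Capitals again mark the core.
Ctu1: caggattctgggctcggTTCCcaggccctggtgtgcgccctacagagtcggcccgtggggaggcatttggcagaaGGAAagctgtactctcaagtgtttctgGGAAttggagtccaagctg
Cavin1: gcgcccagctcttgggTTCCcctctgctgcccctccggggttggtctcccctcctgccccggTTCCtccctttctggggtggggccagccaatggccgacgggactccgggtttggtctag
Itgb1bp1: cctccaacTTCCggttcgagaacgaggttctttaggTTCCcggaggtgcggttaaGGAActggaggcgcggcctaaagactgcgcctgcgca
All 3 stretches held at least 2 cores. The share of stretches of such length with a core was not counted over all promoters, so this is not read as a trait of isolated sites.

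A longer word, GAGGAAGT, is the common core of PU.1 motifs. The highest-scoring 2-library promoters that held it are shown with only this word, or its reverse complement ACTTCCTC, in capitals. Map3k3, a MAP kinase kinase kinase, is at chr11:106084433-106084500 (plus), and Abcg3, a transporter of the ABCG family, at chr5:104982688-104982739 (minus).
Map3k3: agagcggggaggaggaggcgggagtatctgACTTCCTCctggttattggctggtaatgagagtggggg
Abcg3: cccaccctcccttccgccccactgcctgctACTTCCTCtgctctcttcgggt
In Map3k3 the word began 1 bp from the Day 12 summit, and in Abcg3 it began 3 bp from a summit that lay within the word. The Map3k3 site scored 192 at Day 12 and 7.18 in Day 12- 12, and the Abcg3 site 92.7 and 18.9.

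The sites had a lower median Day 12 score than sites called at days 4, 8 and 12 and in Day 12- 12, as had sites called at Day 12 alone. Their Day 12 scores ran from 10.0 to 447 with a median of 15.1 (quartiles 11.6 and 23.3), and 620 of 6558 scored 40 or more. Their Day 12- 12 scores had a median of 8.77 (quartiles 6.20 and 11.8), and 2450 scored 10 or more there. Sites called at Day 12 alone, under the same score limit, had a similar Day 12 median of 14.7 (quartiles 11.6 and 22.6). By comparison, the 5138 sites called at days 4, 8 and 12 and in Day 12- 12 had medians of 55.8 at Day 12 and 14.6 in Day 12- 12. All summits of the Day 12 and Day 12- 12 lists, with no score limit, had medians of 8.43 and 6.34. Ranks in the 2 calling libraries gave a Spearman's rank correlation of 0.117 over the 2-library sites (n = 6558) and 0.55 over those 5138 sites (n = 5138). This describes sites that share the 2 libraries. The score limit and the calls set the range of scores, with Day 12 quartiles of 25.9 and 114 in the 5138 sites. The 2 correlations are therefore not compared. The Day 12 and Day 12- 12 summits lay a median of 33 bp apart, where linkage allowed up to 100.

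Of the 36212 merged sites with a Day 12 score of 10 or more, 18.1% were 2-library sites, 60% were called in Day 12- 12 with or without other calls, and 21.2% were called at Day 12 alone. Without the score limit 23385 sites had the same calls. Just inside the limit lay sites in Grik4 and Slc25a35, with Day 12 scores that round to 10.0 and Day 12- 12 scores of 5.14 and 3.27. Just outside lay sites nearest to Terf2, Daglb and Tapbp, at 9.97 at Day 12 and 10.6, 8.89 and 4.39 in Day 12- 12.

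Proximity to other libraries ran with score, as it did for sites called at Day 12 alone. A summit of one of the other 5 lists lay within 500 bp, though beyond the 100 bp of linkage, at 1398 sites, which is 21.3% (exact 95% interval 20.3 to 22.3). The share was 12.7% (11.8 to 13.7) for Day 12 scores of 10 to 20, 29.5% (27.1 to 31.9) for 20 to 40, 61.1% (56.9 to 65.2) for 40 to 100 and 90.0% (81.2 to 95.6) for the 80 sites at 100 or more. Among the 20 highest-scoring sites, 19 had such a summit within 500 bp and the remaining one at 501 bp. All 20 had both a Day 4 and a Day 8 summit within 525 bp. The nearest lay within 200 bp at 16 of the 20. The name late sites therefore does not hold for the highest-scoring ones, which had earlier calls close by. Over all 2-library sites a Day 4 summit lay within 500 bp at 14.3% (13.4 to 15.2), a Day 8 summit at 8.39% (7.73 to 9.08) and a Day 0 summit at 1.04% (0.806 to 1.31). Sites called at Day 12 alone had a neighbour from the 5 lists within 500 bp in 34.4% of cases (33.3 to 35.5). At scores of 10 to 20, 20 to 40 and 40 or more, 4054 of 5338, 822 of 1630 and 166 of 717 had none. For 2-library sites these counts were 3933 of 4507, 1009 of 1431 and 218 of 620. Neighbours were thus more frequent at higher scores in both classes. The 5160 2-library sites with no such neighbour are called isolated below.

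**Figure D1:**
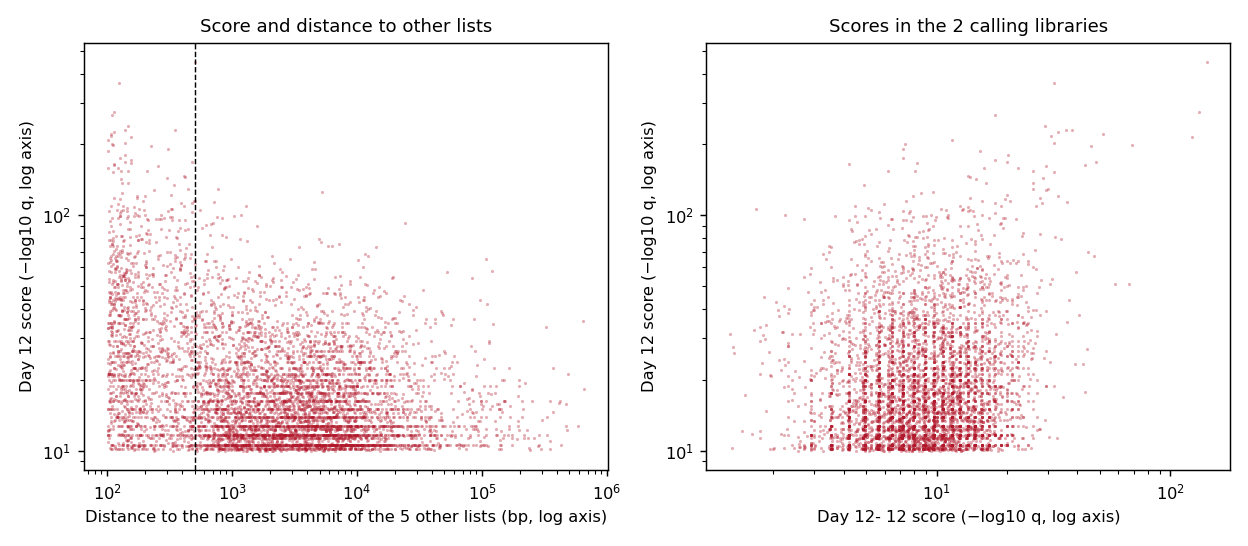
Each point is 1 of the 6558 sites called at Day 12 and in Day 12- 12 alone. Left, the Day 12 score against the distance to the nearest summit of the other 5 lists, with a dashed line at 500 bp; right, the Day 12 score against the Day 12- 12 score, all on log axes. Of the 80 sites at 100 or more, 72 lie left of the line. The scores of the 2 libraries are only weakly related within the range that the score limit and the calls allowed.

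The strongest single sites were as follows. The first lay 380 bp outside Malt1, a signalling protease of lymphocytes (chromosome 18, 65430559), and scored 447 at Day 12 and 143 in Day 12- 12, the highest values of any 2-library site in both libraries. The nearest summits of Day 0, Day 4, Day 8, Day 12- 4 and Day 12- 8 lay 506, 506, 525, 501 and 502 bp from it. The site in Paxx (chromosome 2, 25461112) scored 366 at Day 12 and 31.9 in Day 12- 12. Summits of Day 4, Day 8 and Day 12- 4 lay 145, 132 and 124 bp from it. The site in Spns3, a member of the spinster transporter family (chromosome 11, 72550371), scored 274 and 132, with a Day 12- 4 summit 114 bp away. The nearest Day 0 and Day 12- 8 summits were far from both, at 57775 and 65047 bp from the Paxx site and 56920 and 31259 bp from the Spns3 site.

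A site 86 bp inside an end of Cxcr3, a chemokine receptor (chromosome X, 101734061), scored 198 at Day 12 and 68.9 in Day 12- 12. The site 52 bp from Gimap9 scored 265 and 17.8. Inside Cry2, a circadian repressor, the site scored 230.4 and 35.6, 11.2 kb from an end of the gene. The site just outside Cltc scored 229.8 and 37.9, and that in Ergic1, a protein of early secretory transport, 226 and 33.1. The site 25.3 kb from Mfsd1, a lysosomal transporter, scored 220.3 and 51.7, and that in Srgap3 218 and 31.0. The site 2.38 kb from C77080 scored 214 at Day 12 and 124 in Day 12- 12. These sites were picked by their Day 12 score, and their Day 12- 12 scores ranged widely.

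Further sites of the highest 20 lay in or near Elovl5, a fatty acid elongase, Tonsl, a factor of replication-fork repair, Glg1, Mef2d, a MADS-box transcription factor, Map3k3, Slc7a5, an amino acid transporter, Fem1c, a substrate receptor of a ubiquitin ligase, and Acer1, a ceramidase. Their Day 12 scores ran from 208 at Elovl5 to 175 at Acer1. Of the 20, 9 lay inside a gene body and 11 within 1 kb of a gene end. Their Day 12- 12 scores ran from 7.18 to 143 with a median of 31.8.

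Ranking by the Day 12- 12 score instead gave 6 of the same sites among the first 10. These were the sites at Malt1, Spns3, C77080, Cxcr3, Mfsd1 and Mef2d. The others lay in LOC100504180 (66.7 in Day 12- 12 and 50.9 at Day 12), 27.8 kb from Dynlt1b, a dynein light chain (57.9 and 50.9), in Adipor2, an adiponectin receptor (48.1 and 168), and in Adcy7, an adenylate cyclase (47.1 and 67.3). Sites were not filtered for repeated sequence, so positions shared with near-identical copies are uncertain.

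Isolated sites, chosen after their values were seen, had a median Day 12 score of 13.9, against 15.1 over all 2-library sites. The site in Siglece, an inhibitory sialic acid receptor of myeloid cells (chromosome 7, 43671865), scored 115 at Day 12 and 20.6 in Day 12- 12, with the nearest other summit at 501 bp. The site in Plxnc1, a semaphorin receptor (chromosome 10, 94942870), scored 109 and 4.49, with the nearest other summit 1295 bp away. The site 2.86 kb from Spsb2, an adaptor of a ubiquitin ligase (chromosome 6, 124805746), scored 125 and 9.66, and its nearest other summit was 5227 bp away. At Abcg3 (chromosome 5, 104982706) that distance was 24268 bp. Near Crlf2, the receptor subunit for thymic stromal lymphopoietin (chromosome 5, 109554395), the site scored 90.8 and 6.20, with another list's summit at 619 bp. The isolated sites therefore ranged from near neighbours to positions far from any other call.

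The 2-library sites lay away from gene ends more often than sites called at Day 12 alone. Of 6552 on assembled chromosomes, 14.9% (14.0 to 15.8) had a protein-coding gene's start or end within 1 kb, against 27.7% (26.7 to 28.8) of 7678 sites called at Day 12 alone. The share was 17.2% (16.1 to 18.2) for sites called at days 4, 8 and 12 and in Day 12- 12, and 75.2% (72.3 to 78.0) for sites called in all 7 libraries. Inside a gene body lay 67.4% (66.3 to 68.6) of the 2-library sites and 69.0% (68.0 to 70.1) of those called at Day 12 alone. The median distance to a gene end was 8.79 kb for 2-library sites and 4.92 kb for sites called at Day 12 alone. Measured from starts of protein-coding genes in the promoter table, which does not cover chromosome 18, 9.80% (9.08 to 10.6) of 2-library sites and 22.3% (21.4 to 23.3) of sites called at Day 12 alone lay within 1 kb. Intervals cover counting error only, and sites of a library are not independent replicates, so these differences were not tested.

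Near the gene ends the share grew with score in every class. Among 2-library sites it was 10.1% at Day 12 scores of 10 to 20, 18.5% at 20 to 40 and 41.0% at 40 or more. Sites called at Day 12 alone gave 20.4, 39.3 and 56.2% in the same bands, and the intervals of these classes did not overlap in any band. Sites called at days 4, 8 and 12 and in Day 12- 12 gave 7.39, 9.59 and 22.7%. In each band the 2-library share lay between those of these classes, although over all scores it was below that of the 4-library class, whose scores were higher. All other Day 12 sites of score 10 or more together gave 17.3% (16.6 to 18.1), 26.3% (25.2 to 27.4) and 42.1% (41.2 to 42.9) in the bands, so at 40 or more the interval of the 2-library sites (37.1 to 45.0) included that of all other sites. Isolated 2-library sites were near a gene end in 11.6% (10.7 to 12.5) of cases and isolated sites of Day 12 alone in 19.2% (18.2 to 20.4). In the band of 40 or more the isolated 2-library share was 30.3% (24.3 to 36.8) and that of isolated sites of Day 12 alone 41.2% (33.6 to 49.1), and these intervals overlapped.

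**Figure D2:**
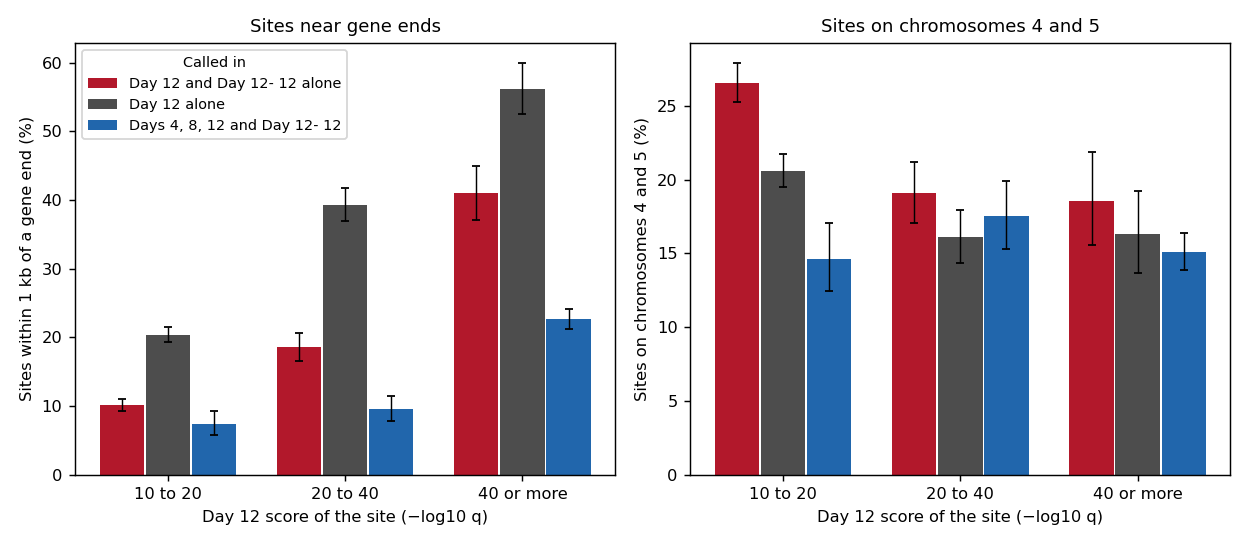
Share of sites within 1 kb of a gene end (left) and on chromosomes 4 and 5 (right), in percent, by Day 12 score for sites called at Day 12 and Day 12- 12 alone (red), at Day 12 alone (grey) and at days 4, 8, 12 and Day 12- 12 (blue); lines are exact 95% intervals for counting error. Red bars reach 10.1, 18.5 and 41.0% near gene ends, below the grey bars of 20.4, 39.3 and 56.2%, and 26.6% on chromosomes 4 and 5 at the lowest scores.

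Chromosomes 4 and 5, named after their values were seen, held 1585 of the 2-library sites, which is 24.2% (23.1 to 25.2). They held 19.2% (18.4 to 20.1) of sites called at Day 12 alone, 15.5% (14.5 to 16.5) of those called at days 4, 8 and 12 and in Day 12- 12, and 11.9% of protein-coding genes. The whole Day 12- 12 list had 23.0% of its summits there, the Day 12 list 19.7%, and the lists of Day 0, Day 4 and Day 8 15.2, 16.2 and 16.3%. The Day 12- 4 list had 20.8% (19.97 to 21.6), above the Day 12 list, and the Day 12- 8 list 18.6%, so a high share was not confined to the calling libraries. Per 100 protein-coding genes there were 60.9 of them on chromosome 4 and 61.2 on chromosome 5, against 47.6 on chromosome 10, 37.7 on chromosome 11 and 15.3 on chromosome 2. Chromosome X had 6.31 and chromosome 14 10.9. By score, the share was 26.6% (25.3 to 27.9) for Day 12 scores of 10 to 20, 19.1% (17.1 to 21.2) for 20 to 40 and 18.5% (15.6 to 21.8) for 40 or more. Above a score of 20 the intervals overlapped those of sites called at Day 12 alone, which gave 16.1 and 16.3%.

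**Figure D3:**
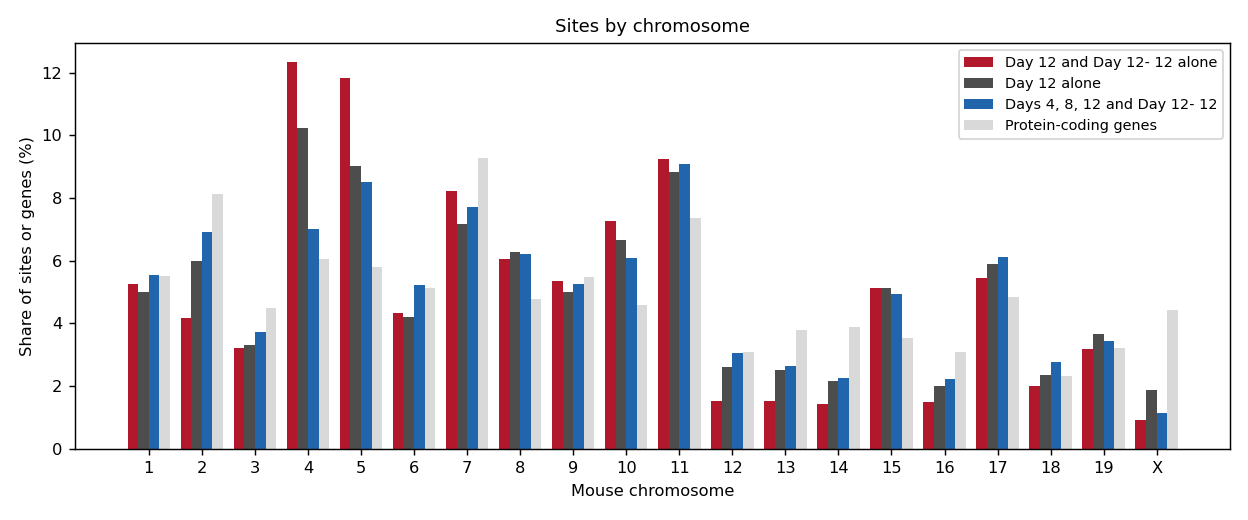
Share of sites on each mouse chromosome, in percent, for sites called at Day 12 and Day 12- 12 alone (red), at Day 12 alone (dark grey) and at days 4, 8, 12 and Day 12- 12 (blue), beside protein-coding genes (light grey). The red bars stand highest on chromosomes 4 and 5, at 12.3 and 11.8%, and low on chromosome X, at 0.930%.

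In the promoters, the interval for the PU.1 word included its share of all windows. Most of the 6558 sites lay outside promoter windows and were not searched, so this does not describe them. A 2-library summit fell in 350 promoter windows of 332 genes, and 13 of these held GAGGAAGT on either strand, which is 3.71% (1.99 to 6.27), against 3.2% of all promoter windows. The share was 1.46% (0.822 to 2.40) for 1024 windows with a summit called at Day 12 alone, 8.53% (6.05 to 11.6) for sites called at days 4, 8 and 12 and in Day 12- 12, and 19.1% (15.9 to 22.6) for sites called in all 7 libraries. CCGGAAGT, a word of other ETS-family factors that shares the core, was in 31 of 350 windows, or 8.86% (6.10 to 12.3), against 3.89% of all windows. It was 4.51% (2.43 to 7.595) with linkage at 200 bp and 6.67% (3.24 to 11.9) for isolated sites, and both intervals included the share of all windows. Windows with any Day 12 site of score 10 or more held CCGGAAGT in 13.9% (13.0 to 14.8) and GAGGAAGT in 6.28% (5.66 to 6.94) of cases. The CCGGAAGT share was 7.91% (6.33 to 9.74) at Day 12 alone, 15.6% (12.3 to 19.5) in the 4-library class and 16.3% (13.4 to 19.6) in all 7 libraries. Windows with a 2-library summit had a median of 16 CpG dinucleotides, against 22 for Day 12 alone and 7 over all windows, and the part of base composition in these shares was not tested. The windows with GAGGAAGT belonged to Map3k3, Abcg3, Aptx, Hectd4, Nfkbid, Ndufa5, Eps8l3, Cttnbp2nl, Igfals, Sdcbp2, Tm4sf5, E330017L17Rik and Gm19951. In Aptx and Hectd4 the word began 255 and 140 bp from the summit, not under it.

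**Figure D4:**
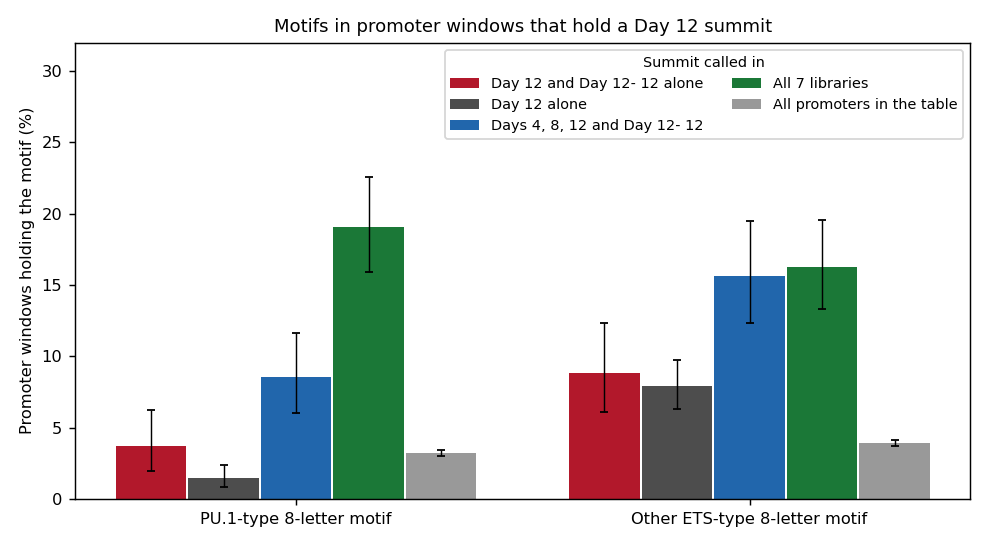
Share of promoter windows, in percent, that hold the PU.1-type word GAGGAAGT (left) or the ETS word CCGGAAGT (right) on either strand, for windows with a Day 12 summit of each call class and for all windows; lines are exact 95% intervals. The PU.1-type word is in 3.71% of windows with a site called at Day 12 and Day 12- 12 alone and in 19.1% of those called in all 7 libraries, against 3.2% of all windows.

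Around genes, 5056 of 21900 protein-coding genes (23.1%) had a 2-library site in their body or within 10 kb, 4100 of them an isolated one. Of these, 3489 had 1 such site and 97 had 5 or more. Genes with a site were longer, with a median of 22.5 kb against 15.6 kb for genes without one. The most sites fell on long genes. Man1c1, a Golgi mannosidase (chromosome 4, 134561690 to 134704290), had 14, and Camta1, a calmodulin-binding transcription activator (chromosome 4, 151059523 to 151861768), had 13. Septin9, a cytoskeletal GTPase, had 11, and Gse1, Cdh23, a cadherin, and Shb, an adaptor of tyrosine kinase signalling, had 10 each. Itpr3, an inositol trisphosphate receptor, Acacb, acetyl-CoA carboxylase beta, Coro1c, a coronin of the actin cytoskeleton, and Hectd4 had 9 each. At Man1c1 the 7 lists held 1, 20, 15, 77, 6, 8 and 98 summits in the order Day 0, Day 4, Day 8, Day 12, Day 12- 4, Day 12- 8 and Day 12- 12. The gene was thus dense in calls of the longest pair of lists, and already had calls at Day 4 and Day 8.

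Myeloid maturation genes had a 2-library site in 16 of 37 cases, against 23.1% of all protein-coding genes. Tyrobp, the signalling adaptor of myeloid receptors, had the highest score (169 at Day 12, 19.9 in Day 12- 12), from a site 0.868 kb outside it with another list's summit 140 bp away. Fcer1g, the Fc receptor gamma chain, scored 92.2, from a site 7.63 kb outside it and nearer to Tomm40l. Mmp9, gelatinase B of neutrophils, scored 46.6, from a site 1.40 kb outside with no other list's summit for 4158 bp. Prtn3, a neutrophil granule protease, scored 40.7, with another list's summit 161 bp away. Of the 37 genes, 36 also had a Day 4 summit in the gene or within 10 kb. So did 23 of 24 cell cycle, 19 of 20 housekeeping and 10 of 20 non-haematopoietic genes. The share over all genes was not counted, so this is not read as a trait of myeloid genes.

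Myeloid transcription factor genes had a 2-library site in 6 of 23 cases, against 23.1% of all protein-coding genes. Jun, an AP-1 subunit, scored 106 at Day 12 and 10.5 in Day 12- 12, with another list's summit 179 bp away. Spi1, which encodes PU.1 itself, had 1 such site inside the gene (chromosome 2, 91086483), with scores of 31.99 and 12.6 and the nearest other summit 1710 bp away. The 7 lists held 3, 9, 5, 12, 4, 4 and 13 summits around Spi1, in the same order. Cebpb and Stat3, factors of myeloid and cytokine responses, scored 27.9 and 20.7 at Day 12, the Cebpb site lying 8.86 kb outside its gene.

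Of the stem cell and leukaemia genes listed, 12 of 24 had a site, against 23.1% of all protein-coding genes. The median length of the listed genes was 73.9 kb against 17.1 kb for all genes. Tet2, a DNA demethylation enzyme, scored 99.3 at Day 12 and 3.66 in Day 12- 12, at its gene end, with another list's summit 180 bp away. Kmt2a, a histone methyltransferase rearranged in leukaemia, scored 63.8 and 22.3, Gata2, a progenitor factor, 30.4 and 7.56, and Dnmt3a, a DNA methyltransferase, 21.7 and 3.91. The last 3 sites had no other list's summit within 500 bp.

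Lysosome and autophagy genes had a site in 10 of 20 cases, against 23.1% of all protein-coding genes. Of these 10 genes 5 had an isolated site, against 4100 of the 5056 genes with a site. Ctsl, a lysosomal cysteine protease, was the clearest case, since its site (chromosome 13, 64370325) was the only call within 10 kb in Day 12 and in Day 12- 12, and the other 5 lists had 0. That site lay inside the gene, scored 44.9 at Day 12 and 5.94 in Day 12- 12, and was 14742 bp from the nearest summit of another list. Atp6v0d1, a proton pump subunit, and Tfeb, the regulator of lysosomal genes, scored 37.8 and 32.5 at Day 12, each with another list's summit within 500 bp. The Atp6v0d1 site lay nearer to Agrp.

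GTPase regulators and actin genes had a site in 8 of 20 cases, against 23.1% of all protein-coding genes. All 8 genes had an isolated one, as had 4100 of the 5056 genes with a site. Arhgef1, Vav1, Rac2 and Cyth4, regulators or members of small GTPase families, scored 36.9, 27.9, 24.6 and 16.3 at Day 12. The Arhgef1 site lay nearer to Cd79a. Chromatin regulators had a site in 9 of 25 cases, beside the same 23.1% of all genes. Among them were Dot1l, a histone methyltransferase, at 52.2, and Smarca4, a chromatin remodelling ATPase, at 16.3. The site of Chd4, another such ATPase, scored 11.6 in Day 12- 12 and lay 9.95 kb outside that gene and nearer to Nop2.

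Genes of other blood lineages and of other tissues were counted beside the same 23.1% of all genes. T-lymphoid genes had a site in 7 of 16 cases, with Cd3g, Lck, Cd247 and Lef1 at 58.8, 54.7, 35.1 and 29.2 at Day 12, and the Cd3g site lay nearer to Ube4a. B-lymphoid genes had one in 4 of 16, with Pax5, the B-cell commitment factor, at 59.4, Cr2 at 53.2, Cd79a at 36.9 and Cd79b at 12.8. The Cr2 site lay nearer to Cr1l, and the Cd79a site was the one also counted for Arhgef1. Erythroid and megakaryocytic genes had one in 4 of 16, with Epor, the erythropoietin receptor, at 72.4, Itga2b at 28.4 and Vwf at 10.5. The Epor site lay nearer to Rgl3. The mast cell and basophil list had 1 of 11, Srgn, at 10.3. Non-haematopoietic genes had 3 of 20, with Ckm at 49.1, Mbp at 25.8 and Col1a1 at 10.0, all from sites outside the genes. The Ckm site lay nearer to Klc3. The T-lymphoid share was 43.75% (19.8 to 70.1), and the B-lymphoid and the erythroid and megakaryocytic shares were 25% each. The mast cell and basophil and the non-haematopoietic shares lay below the 23.1% of all genes. The interval of each list in this paragraph included that share.

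Lists of general cell functions stood on both sides of the share of all genes. Housekeeping genes had a site in 6 of 20 cases, with Actb, Rpl13a, Polr2a and Rplp0 at 22.6, 11.6, 11.4 and 10.7 at Day 12. Cell cycle genes had one in 4 of 24, with Ccnd3, E2f1, Mcm2 and Cdk4 at 51.6, 25.2, 16.3 and 10.1. RNA splicing genes had one in 4 of 20, with Srsf3, Snrnp70 and Ddx41 at 26.5, 13.1 and 10.8 and Sf3a1 at 9.77 in Day 12- 12. DNA repair genes had one in 3 of 20, with Ercc2, Xrcc1 and Brca2 at 49.1, 10.5 and 10.4, and the Ercc2 site was the one also counted for Ckm. Several of these sites lay nearer to another gene, among them those of Actb, Polr2a, Rplp0, Cdk4, Sf3a1, Ddx41, Ercc2 and Brca2. Lists were described by counts beside the share of all genes. The intervals of the myeloid maturation (27.1 to 60.5%), stem and leukaemia (29.1 to 70.9%) and lysosome and autophagy lists (27.2 to 72.8%) lay above 23.1%. Those of the other lists included it. Median gene lengths in those 3 lists were 11.1, 73.9 and 19.1 kb. The part of gene length in the shares was not tested, and nothing particular to a list is claimed.

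**Figure D5:**
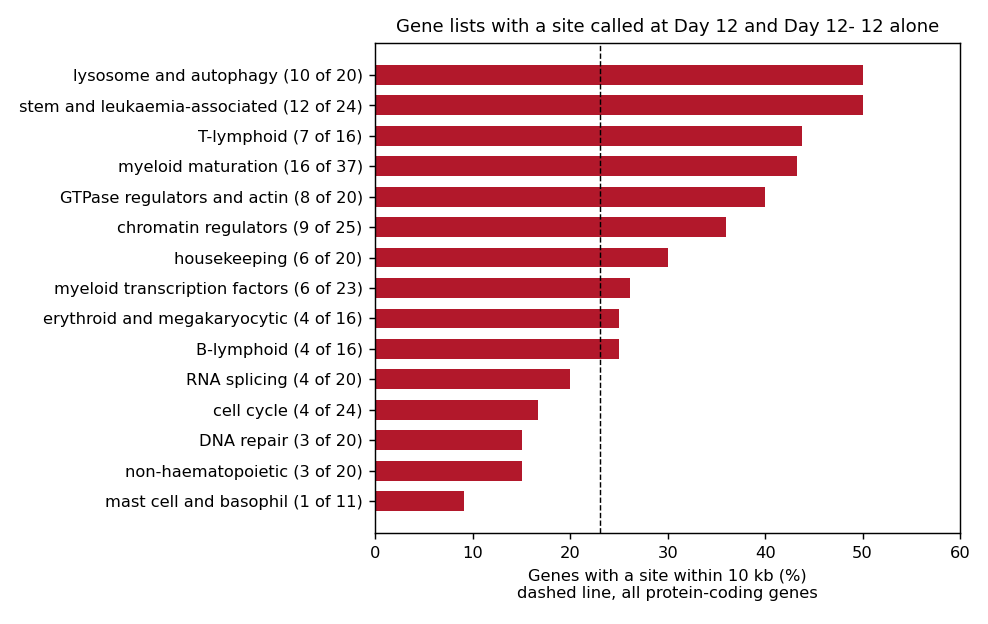
Share of each gene list, in percent, with a site called at Day 12 and Day 12- 12 alone in the gene body or within 10 kb, with the number of genes beside each name; the dashed line marks the 23.1% of all protein-coding genes. Bars run from 1 of 11 mast cell and basophil genes to 10 of 20 lysosome and autophagy genes and 12 of 24 stem and leukaemia-associated genes.

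For 204 of the 5056 genes with a 2-library site, which is 4.03%, no summit of Day 0, Day 4 or Day 8 lay in the gene or within 10 kb. The same share over all protein-coding genes was not counted, so 4.03% is not read as few or many. They were chosen after their values were seen and had a median length of 10.2 kb, and 188 of them had 1 such site. The highest Day 12 scores among them were 104 around Rbis, a factor of ribosome biogenesis, 82.7 around Ddn, 67.6 around Gnpda2, a glucosamine-phosphate deaminase, 67.0 around 1700030K09Rik and 65.3 around Rabl3 and Gtf2e1, which share the site. Rbis, Ddn, Gnpda2 and 1700030K09Rik also had Day 12- 8 summits within 10 kb, and Rbis and Gnpda2 had no isolated site. Gtf2e1, a subunit of general factor TFIIE, had 2 summits within 10 kb in Day 12, 2 in Day 12- 12 and 0 in each of the other 5 lists. Eci2, an enzyme of fatty acid oxidation, had 1, 1 and 0 in the same lists, with a Day 12 score of 57.7. Of the 204 genes, 134 had a further Day 12 summit that was no such site.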

How the data were processed

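PU.1 ChIP-seq was analysed from 7 lists of peak summits of AML246 cells; an eighth sample, labelled 12 days off Dox, was not analysed here. The submitters' processing notes list MACS2 and mm10. The deposited score was read as −log10 of the q-value, because the lowest score in all lists, 1.30104, lies just above the 1.30103 of a q of 0.05. Nothing on the aligner, control library, depth or pooling is given in the sources used here. Libraries were grouped by title. Scripts ran on Python 3.11.15 with pandas 2.3.3 for merging, numpy 2.4.6 for distances, scipy 1.17.1 for intervals, and matplotlib 3.10.9. Distances were taken from the Day 12 summit to protein-coding genes of the RefSeq table for GRCm38.p6, and motifs were searched on both strands of the RefSeq promoter windows, where a gene can have several. No genome sequence was used here, so sites outside promoter windows have no sequence. Shares carry exact Clopper-Pearson 95% intervals, for counting error only. Merging and annotation were tested on simulated data. Of 313 entries in 15 gene lists, 312 matched the table. Members, lists and rules were chosen with earlier results of these data known. Named were the 20 sites with the highest Day 12 score, the 10 with the highest Day 12- 12 score, the 10 genes with the most sites and up to 4 genes of each list. Alternatives covered the linkage distance, score minimums, each of the other lists left out, gene windows and, added after seeing the data, isolated sites alone and the share on chromosomes 4 and 5. Some sites and genes that these rules select are not reported here.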

Additional observations from a re-analysis of the deposited data

How the results depend on the processing

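The count of 6558 sites stayed within 1.5 times of itself at every linkage distance, with a Day 12- 12 minimum of 5, with each other list left out and for isolated sites, but was 17449 with a Day 12 minimum of 5 and 2051 with a minimum of 20. The share within 1 kb of a gene end was 17.5, 14.0 and 12.4% with linkage at 50, 200 and 500 bp, 10.8 and 25.3% with Day 12 minimums of 5 and 20, and 13.8% with a Day 12- 12 minimum of 5. It was 10.1, 18.5 and 41.0% in the 3 score bands, 10.3 and 22.8% with gene ends at 500 and 2000 bp, 15.9 and 17.0% without the list of Day 8 or Day 12- 8, and 11.6% for isolated sites. In each of the 6 settings of linkage, Day 12 minimum or isolation compared, it was below that of sites called at Day 12 alone. The share on chromosomes 4 and 5 was 25.2 and 18.9% with Day 12 minimums of 5 and 20, 26.6, 19.1 and 18.5% in the bands, 26.5% with a Day 12- 12 minimum of 5, 22.8% with linkage at 50 bp and 25.4% for isolated sites. The median Day 12- 12 score was 7.91 and 9.13 with Day 12 minimums of 5 and 20, 9.64 with a Day 12- 12 minimum of 5 and 8.96 with linkage at 50 bp. Summits lay a median of 29 bp apart with a Day 12 minimum of 20, 46 bp with linkage at 200 bp and 35 bp for isolated sites. The share inside genes was 68.8% with linkage at 200 bp. Genes with a site numbered 2277 with a Day 12 minimum of 20, 3189 for bodies alone and 8947 within 50 kb. A neighbour from another list was found for 40.2% with a Day 12 minimum of 20, 9.51% with linkage at 200 bp and 32.4% within 1 kb. CCGGAAGT was in 4.51% of windows with linkage at 200 bp, close to the 3.89% of all windows, and the cause was not tested. No paired analysis was possible because each time point had 1 library. Depth was unknown, and its part in missing calls of the shorter lists was not tested.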
